A study of Saccharomyces cerevisiae with 11 samples.

Results

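The cytosolic ribosomal protein genes of budding yeast were followed across deletions of histone chaperone genes and across a histone deacetylase inhibitor. Members were the genes named RPL or RPS with a number, and the stalk genes RPP0, RPP1A, RPP1B, RPP2A and RPP2B. They numbered 137 of the 6256 genes on the array. Of these, 81 encode proteins of the large subunit, stalk included, and 56 proteins of the small subunit. The names gave 59 A and B paralog pairs, with 118 genes, and 19 genes without such a pair. All 137 were detected in both channels on all 11 arrays and entered every fit.

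Ribosomal proteins join ribosomal RNA in a small subunit, which decodes the message, and a large subunit, which forms peptide bonds. In yeast their genes are among the most highly transcribed, are driven together by Rap1, Fhl1, Ifh1 and Sfp1, and are shut down together when growth slows. Most exist as a pair of near-identical copies left by an ancient genome duplication. The acetyltransferase Esa1 and the deacetylase Rpd3 act on chromatin at these genes, and trichostatin A (TSA) inhibits deacetylases of the Rpd3 kind.

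All strains derived from BY4742, a haploid of mating type alpha. In 5 strains a single gene for a histone chaperone was deleted: ASF1, RTT106 or VPS75, which act on histones H3 and H4, or CHZ1 or NAP1, which act on H2A and H2B. Each deletion strain was measured on 1 array without TSA and 1 with 10 µM TSA for 1 hour, and the wild type on 1 array with TSA, in rich glucose medium at 30 °C. Only the untreated chz1 array has the word glucose in its title, and what the word marks is not given. Every array carried a second RNA as reference, read here as untreated wild type. On the arrays of deletions given TSA, and on the untreated chz1 array, the channel entries instead name the untreated deletion strain for the reference.

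Values are log2 ratios of experimental over reference RNA, so that 1 means a doubling. The deleted gene stood between −4.53 (NAP1 with TSA) and −2.86 (CHZ1 without TSA) on its own arrays, so the reference there contained it. The nap1 array without TSA was turned, because its NAP1 signal was low in what is the reference column of the other arrays. The wild type array offers no such check, and its direction was assumed to be that of the others. Its correlation with the other arrays over all genes ran from −0.156 (asf1 with TSA) to 0.464 (chz1 with TSA). With signs so mixed, these values do not settle the direction. No strain and treatment had a replicate, so p-values measure only the spread between strains, or between the arrays of a strain, which may share a culture. By the labels no dye was swapped, so a probe's dye preference and a difference from the reference cannot be told apart. Whether the turned nap1 array had its dyes or only its columns exchanged was not tested. The alpha-cell genes MF(ALPHA)1, MF(ALPHA)2 and STE3 were detected on 11 arrays. Of the a-cell genes MFA1 was detected on 11, STE2 on 10 and MFA2 on 5.

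The members lay at the bright end of the arrays. Their median signal ran from 7314 to 22835 in the reference channel and from 8183 to 32052 in the experimental channel, against medians of 357 to 1095 over all genes. The nap1 array without TSA had the lowest member signals in both channels. Because a dye trend with brightness can imitate a shift of such genes, a trend was fitted on the other genes and subtracted from the members. The same step left 81 other bright genes, defined below, at medians from −0.07 (nap1 without TSA) to 0.17 (chz1 without TSA).

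With the trend of the other genes subtracted, the ribosomal protein genes as a group stayed close to the reference on every array. The members' median log2 ratio without TSA was 0.02 in asf1, 0.07 in chz1, −0.19 in nap1, 0.21 in rtt106 and, in vps75, 0.12. With TSA it was −0.04 in asf1, −0.02 in chz1, 0.14 in nap1, 0.07 in rtt106 and 0.02 in vps75, and −0.00 in the wild type. The nap1 array without TSA was thus the low end and the rtt106 array without TSA the high end. On the former 8 of 137 members were above 0 and on the latter 117. The fit itself sets the median over all genes near 0, and over the genes tested it lay between −0.01 and 0.00 on every array. By the log ratio that the authors deposited, the member medians ran from 0.04 (asf1 with TSA) to 0.51 (rtt106 without TSA).

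**Figure D1:**
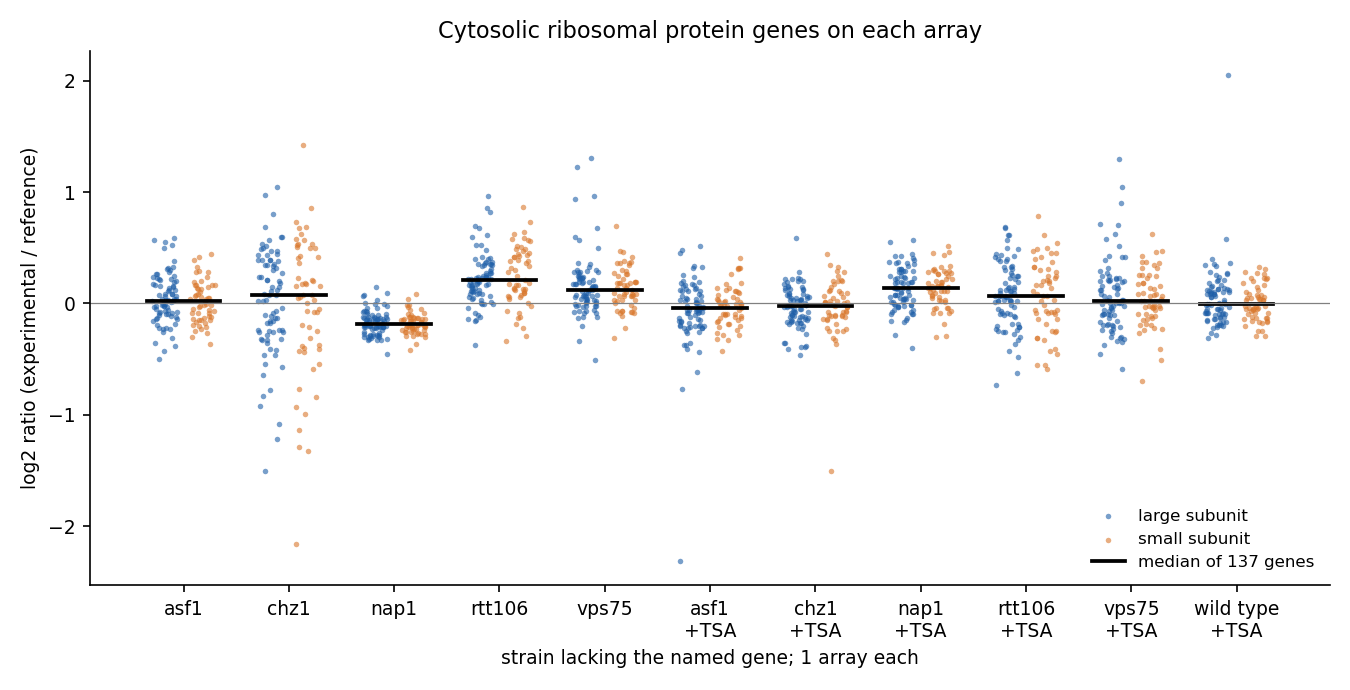
Log2 ratio (experimental over reference, y axis) of each of the 137 ribosomal protein genes on the 11 arrays (x axis), coloured by subunit, with a bar at the median. The medians lie between −0.19 (nap1 without TSA) and 0.21 (rtt106 without TSA), and single genes such as RPP2A and RPS28B lie far from the rest.

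The size of these group shifts depended on the normalization. Centring each array on its median, with no brightness trend removed, gave member medians of 0.08 in nap1 and 0.44 in rtt106 without TSA, so that the sign in nap1 turned. For comparison, 81 other genes were taken whose mean signal lay between the members' lower quartile and their maximum. Members below that quartile have no counterpart among them. On the same scale, these bright genes had medians of 0.35 in nap1 and 0.27 in rtt106. The members therefore lay 0.27 below the bright genes in nap1 and 0.16 above them in rtt106. A loess curve through all genes, members included, gave −0.14 and 0.10. On the nap1 array with TSA the members lay at 0.34 after centring, 0.08 above the bright genes.

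**Figure D2:**
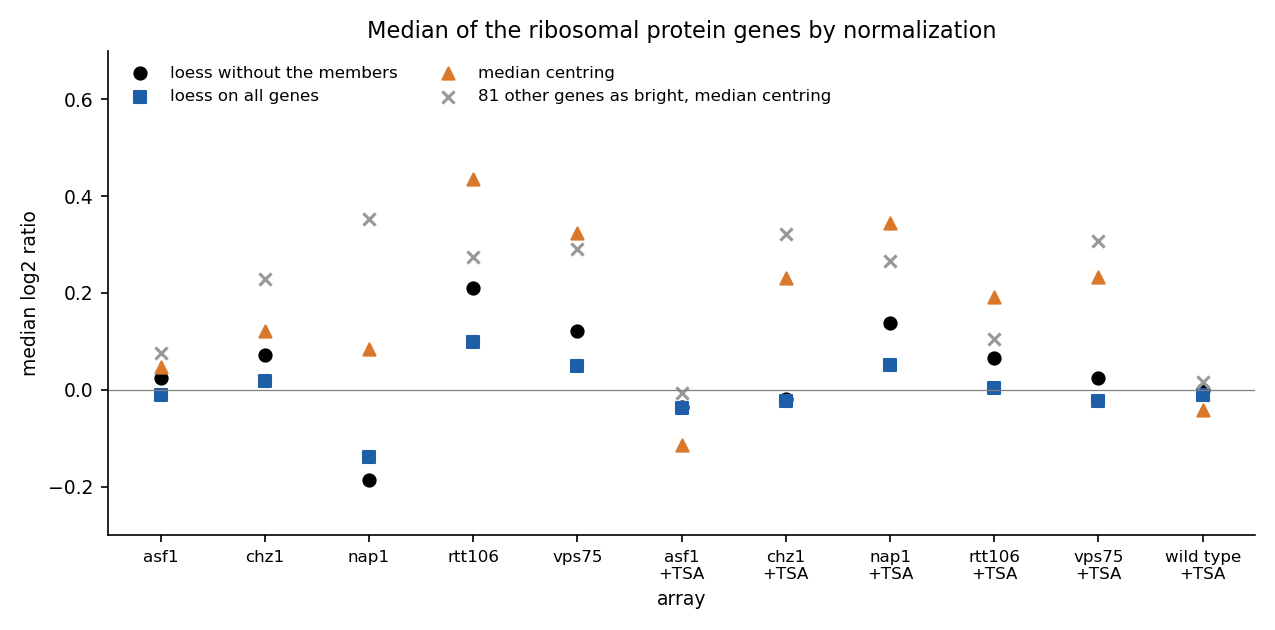
Median log2 ratio (y axis) of the 137 members on each array (x axis) after loess without the members, loess on all genes and median centring. The 81 other bright genes, from the members' lower quartile of signal to their maximum, are shown after median centring. On the nap1 array without TSA the members run from −0.19 to 0.08 while the bright genes stand at 0.35.

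Large and small subunit genes had nearly the same medians. The median of the large subunit minus that of the small one lay between −0.04 (asf1 with TSA) and 0.03 (wild type with TSA) over the 11 arrays. On the wild type array the difference was −0.02 in one repeat measurement and 0.03 in the other, and the sign also changed on other arrays. The difference between the subunits was thus no larger than the technical error on that array. The spread of single genes within the members differed between arrays. Their SD ran from 0.10 in nap1 without TSA to 0.55 in chz1 without TSA, where it was 0.54 over all genes.

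Across the 5 deletion strains, no ribosomal protein gene passed the test of the difference with TSA. None of the 5916 genes tested passed an adjusted p of 0.05 (percent called 0), members included, by limma with a block for strain and p-values adjusted after Benjamini-Hochberg. The smallest adjusted p of a member was 0.816. At an unadjusted p under 0.05 there were 0 members and 255 genes, which is 4.31% of those tested. The median difference with TSA was 0.32 in nap1, −0.04 in asf1, −0.07 in chz1, −0.09 in vps75 and −0.17 in rtt106. The mean of these medians was −0.01 ± 0.19 (SD, n = 5).

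With this normalization the nap1 strain went the other way from the remaining 4. There 129 of 137 members had a positive difference, against 51.6% of all genes. In asf1, chz1, rtt106 and vps75 46, 61, 25 and 34 members did, against 46.5% to 50.8% of all genes. The 81 other bright genes had a median difference of 0.12 in nap1 and of −0.07 to 0.01 in the remaining 4. After median centring the chz1 member median was 0.12 without and 0.23 with TSA. RPL39 (0.87) and RPL42B (0.77), both of the large subunit, were the highest in nap1. The nap1 difference joins the array with the lowest member signals, whose columns were turned, to one with signals in the usual range; the part of these in the difference was not tested. With the columns of that array left as deposited, its member median was 0.19 in place of −0.19. Without nap1 the mean of the strain medians was −0.10. With the same sign in all 5 strains, 0 members were higher (4.18% of all genes) and 1 was lower (3.75% of all genes). The 1 lower gene was RPL34A, with differences of −0.13, −0.17, −0.08, −0.07 and −0.02 in asf1, chz1, nap1, rtt106 and vps75.

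**Figure D3:**
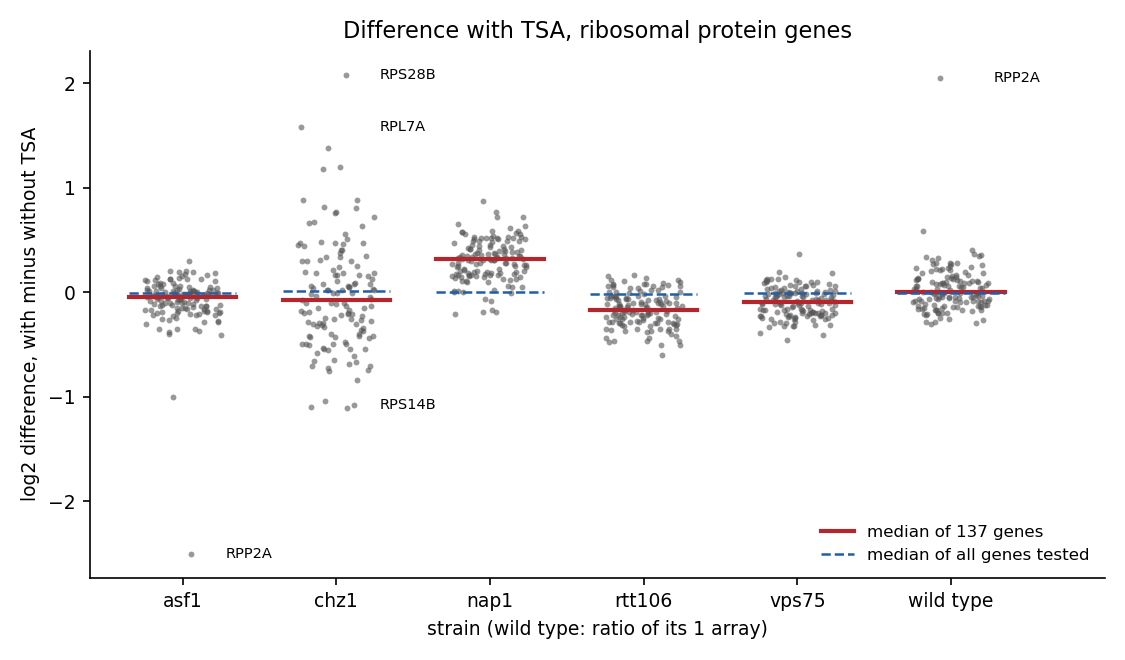
Difference of the log2 ratio with minus without TSA (y axis) for 137 ribosomal protein genes in each deletion strain, and the ratio of the single wild type array (x axis). Solid bars mark the members' median and dashed bars that of all genes tested; the nap1 median of 0.32 stands apart from medians between −0.17 and −0.00 elsewhere.

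The most extreme mean differences with TSA rested on 1 strain each. RPP2A, a stalk protein gene, had the lowest mean at −0.52 (SE 0.38), with −2.50 in asf1 and values between −0.15 and 0.31 elsewhere. RPS28B was highest at 0.38 (SE 0.34), with 2.08 in chz1 and values between −0.38 and 0.33 elsewhere. After RPP2A the lowest means were those of RPS14B (−0.32), RPL15A (−0.27), RPS25B (−0.21), RPL27A (−0.19) and RPL31B (−0.19). After RPS28B the highest were RPS8A (0.23), RPL7A (0.16), RPL16B (0.15), RPS11A (0.14) and RPS17B (0.12). None of these 12 passed the test. With any 1 strain left out RPS14B, RPL15A, RPL27A, RPL31B and RPP2A stayed below 0 and RPL16B and RPS17B above 0, though RPP2A reached −0.02 without asf1. Without the chz1 strain the sign turned for RPS28B (−0.05), RPS8A (−0.06), RPL7A (−0.19), RPS11A (−0.11) and RPS25B (0.01).

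With the 5 deletions without TSA as replicates against the reference, 0 of 5916 genes were called, members included, and the smallest adjusted p was 0.650. At an unadjusted p under 0.05, 17 members were higher (4.56% of all genes) and 6 lower (2.52% of all genes). The same test on the 5 deletion arrays with TSA called 402 genes, 11 of them members. It called 9 members higher (3.45% of all genes) and 2 lower (3.35% of all genes), which is 6.57% and 1.46% of the members. These counts moved with the normalization. Loess on all genes called 7 higher and 5 lower (5.11% and 3.65% of the members, 3.41% and 3.48% of all genes). Median centring called 38 higher and 4 lower (27.7% and 2.92%, with 5.32% and 6.02% of all genes). The deposited ratio called 49 higher and 2 lower (35.8% and 1.46%, with 8.81% and 2.38% of all genes).

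Among the 9 higher with TSA than the reference were RPL39 (0.52), RPL29 (0.51), RPS31 (0.46), RPL41A (0.46), RPS29B (0.41), RPS26A (0.34), RPL43A (0.30) and RPL41B (0.30). RPS31 encodes a fusion of ubiquitin with a small subunit protein, and RPL41A and RPL41B the shortest proteins of the ribosome. In asf1, chz1, nap1, rtt106 and vps75 with TSA, RPL39 stood at 0.45, 0.22, 0.55, 0.67 and 0.70, and RPL29 at 0.52, 0.22, 0.57, 0.69 and 0.58. All 9 were above 0 on all 5 arrays. Lower were RPL7B (−0.47) and RPL18B (−0.36). RPL7B stood at −0.44, −0.46, −0.40, −0.73 and −0.32, below 0 in every strain. Adjusted p-values of the genes named here, by limma, ran from 0.0196 to 0.0455.

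Over the deletions without TSA the 9 higher genes had means between 0.20 and 0.61. On the nap1 array without TSA they stood between −0.32 and 0.04. Their mean difference with TSA lay between −0.16 and 0.10, and none passed that test. Brightness moved with the direction: all 9 had a mean log2 signal above the members' median of 14.3, and both lower genes lay below the lower quartile of 13.8. Within the members the ratio was higher at higher signal on every array, at a Spearman rho of 0.11 (nap1 without TSA) to 0.64 (rtt106 with TSA) across genes, which are not independent and share their array. The rho with gene length ran from −0.43 (vps75 without TSA) to −0.20 (asf1 with TSA), except 0.08 in nap1 without TSA. The parts of brightness and of gene length in these calls were not tested. The calls also needed most strains: without rtt106 or without vps75 none of the 11 remained, without nap1 1, without chz1 2 and without asf1 7. Calls over all genes fell too, from 3.45% higher and 3.35% lower to 0.507% and 0.321% without rtt106 and 0.338% and 0.254% without vps75. They were 1.35% and 0.845% without nap1, 0.237% and 0.118% without chz1, and 2.08% and 1.57% without asf1.

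Between strains, 5 members stood out, all in vps75. Each strain was contrasted with the average of the remaining 4, with its arrays without and with TSA as replicates. In vps75, RPL2B was higher by 0.93 (SE 0.11, adjusted p = 0.00628), RPL34B by 1.00 (SE 0.15, adjusted p = 0.0139), RPL40A by 0.94 (SE 0.16, adjusted p = 0.0194), RPL16A by 0.90 (SE 0.13, adjusted p = 0.0121) and RPS24B by 0.76 (SE 0.11, adjusted p = 0.0121), by limma. The background was 2.37% of genes called higher. No member was called lower in vps75 (0.592% of all genes). In the other strains 0 members were called, where the share of all genes called higher and lower was 1.67% and 0.304% in asf1, 0.0338% and 0.135% in chz1, 0 and 0.0169% in nap1, and 2.05% and 0.237% in rtt106. At an unadjusted p under 0.05 asf1 had 5 members, chz1 8, nap1 5, rtt106 5 and vps75 6, against 16.8%, 15.6%, 8.92%, 14.8% and 8.99% of all genes.

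The ratios of these 5 genes on the vps75 arrays lay above all other arrays. RPL2B, whose protein lies near the peptidyl transferase centre, stood at 0.97 without and 0.71 with TSA, against −0.24 to 0.14 (median −0.10) on the other 9 arrays. RPL34B stood at 1.30 and 1.29, against −0.09 to 0.69 (median 0.25). RPL40A, which encodes a ubiquitin fusion, stood at 1.23 and 1.05, against −0.14 to 0.43 (median 0.16). RPL16A stood at 0.93 and 0.90, against −0.21 to 0.23 (median 0.03). RPS24B stood at 0.70 and 0.63, against −0.25 to 0.06 (median −0.09). For all 5 genes, both vps75 values lay above the highest of the other 9 arrays.

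The 5 genes share a chromosome. Their systematic names (YIL018W, YIL052C, YIL148W, YIL133C and YIL069C, in the order given in the test) place them on chromosome IX, and they are all the members that lie there. This was looked up after their values had been seen. The median log2 ratio over 209 genes of chromosome IX was 0.88 without and 0.87 with TSA in vps75. Both arms were alike, at 0.89 and 0.88 without TSA and 0.87 and 0.86 with it. On the other 9 arrays the chromosome's median lay between −0.01 and 0.05. Of the 140 genes called higher in vps75, 134 (95.7%) were on chromosome IX; 64.1% of its genes were called, against 0.105% of the 5707 genes elsewhere. Of the 132 members elsewhere, 0 were called.

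The paralogs on other chromosomes stood lower. On the vps75 arrays without and with TSA, RPL2A stood at 0.14 and −0.07, RPL16B at 0.17 and 0.16, RPL34A at 0.22 and 0.20, RPL40B at 0.23 and 0.13 and RPS24A at 0.37 and 0.47. The values of RPL16B, RPL34A, RPL40B and RPS24A lay within the range of the other 9 arrays. RPL34A minus RPL34B was −1.08 and −1.09. The difference between paralogs was not tested. DNA copy number was not measured.

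**Figure D4:**
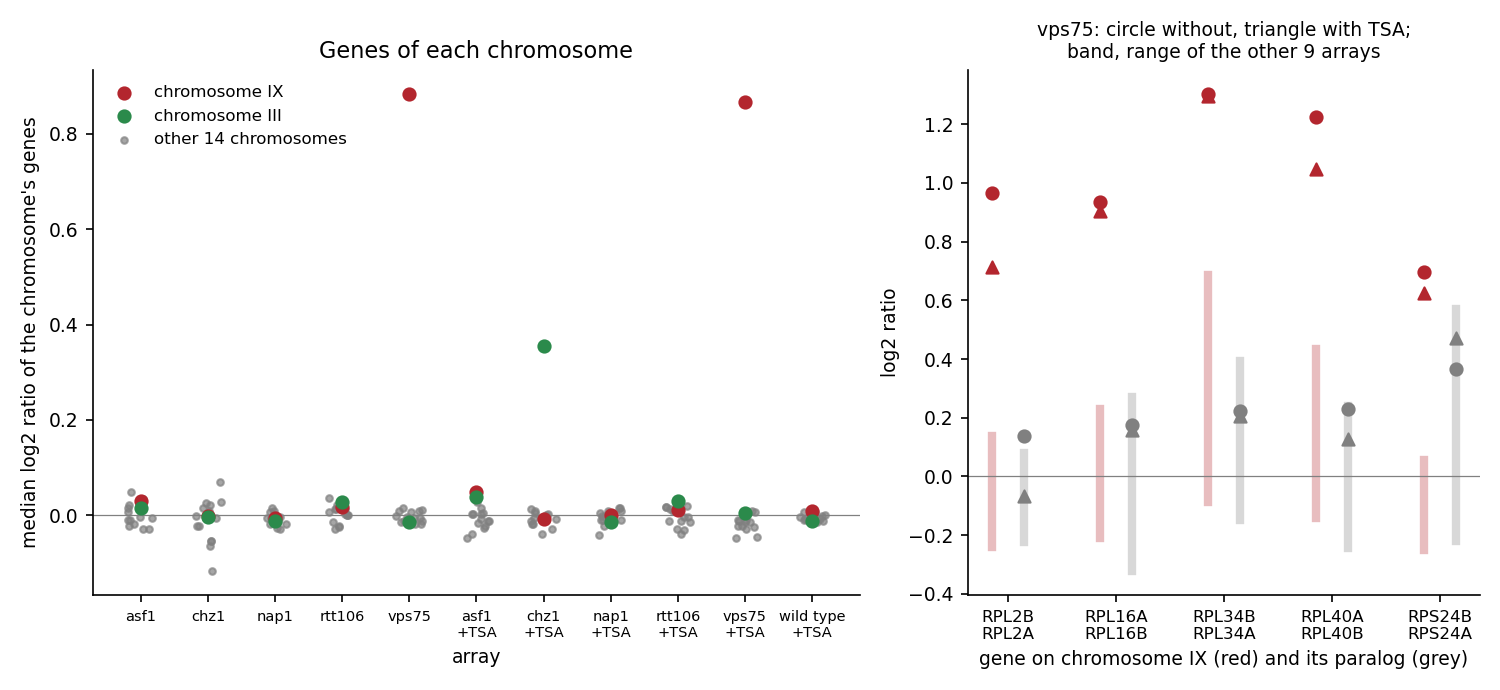
Left, the median log2 ratio (y axis) of the genes of each of the chromosomes on the 11 arrays (x axis); chromosome IX stands at 0.88 and 0.87 in vps75 and chromosome III at 0.35 in chz1 with TSA. Right, the 5 ribosomal protein genes of chromosome IX (red) and their paralogs (grey) on the vps75 arrays without (circle) and with TSA (triangle), with bands from the lowest to the highest value on the other 9 arrays.

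Another chromosome stood apart on 1 array. In chz1 with TSA the median over 161 genes of chromosome III was 0.35, with 0.35 and 0.39 on its arms, against −0.01 to 0.04 on the other 10 arrays. The remaining 173 chromosome medians lay between −0.12 and 0.07. The only member on chromosome III is RPS14A (YCR031C), which stood at 0.44 there and at −0.19 in chz1 without TSA. Its paralog RPS14B, on chromosome X, was the lowest member on that array at −1.51, against −0.70 to −0.11 (median −0.30) on the other 10. Its signal there was 3598.5 in the experimental and 9634.5 in the reference channel, and the repeat measurements lay 0.01 from their mean. A minus B was therefore 1.95. Excess protein S14 is known in yeast to bind the RPS14B transcript and repress it; whether this bears on the value was not tested. This array has no replicate.

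The stalk genes varied most in RPP2A. RPP2A encodes an acidic protein that, with its partners on the P0 base, recruits elongation factors. It stood at 2.05 on the wild type array with TSA and at −2.31 in asf1 with TSA, and between −0.20 and 0.23 on the other 9. On the wild type array the low signal was in the reference channel, at 6592.5 against 28015. In asf1 with TSA it was in the experimental channel, at 8201.5 against 39395.5. With the wild type array turned, RPP2A would lie as far below 0 there. The other stalk genes RPP0, RPP1A, RPP1B and RPP2B lay between −0.20 and 0.61 on all arrays. RPL15A, of the large subunit, also had 0.58 on the wild type array and −0.77 in asf1 with TSA.

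Without TSA, the chz1 array had the widest member ratios. At least 1.5-fold higher were 12 members (8.76%, with 9.82% of all genes) and at least 1.5-fold lower 16 (11.7%, with 12.2% of all genes), so the share of members was near the background. RPS28B was lowest at −2.16, where the other 10 arrays ran from −0.31 to 0.14 (median −0.09), and its paralog RPS28A stood at 0.18. Below −1 lay also RPL7A (−1.51), RPS11B (−1.33), RPS11A (−1.29), RPL7B (−1.22), RPS8A (−1.13) and RPL18B (−1.08). Highest were RPS31 (1.43), RPL4A (1.05) and RPL15A (0.97). With TSA the same strain had RPL7A at 0.08 and RPS31 at 0.33, and 1 member past 1.5-fold in each direction, RPL38 (0.59) higher and RPS14B lower (3.16% and 2.45% of all genes). The lowest after RPS14B were RPL7B (−0.46) and RPL18B (−0.41).

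On the rtt106 array without TSA, 12 members were at least 1.5-fold higher (8.76%, with 4.19% of all genes) and 0 lower (1.32% of all genes). RPL41A (0.96), RPS20 (0.87) and RPL39 (0.86) led, and RPL7B (−0.37), RPS14B (−0.33) and RPS9A (−0.29) were lowest. With TSA 6 members were higher (4.65% of all genes) and 2 lower (3.75% of all genes); RPS31 (0.79), RPL29 (0.69) and RPL39 (0.67) led, and RPL7B (−0.73), RPL20A (−0.63) and RPS9A (−0.58) were lowest. In the asf1 strain without TSA, 1 member was past 1.5-fold higher (4.61% of all genes) and 0 lower (1.08% of all genes). RPL39 (0.59), RPL38 (0.57) and RPL29 (0.55) led, and RPL20A (−0.50), RPL7B (−0.43) and RPL8A (−0.38) were lowest. With TSA 0 members were higher (6.76% of all genes) and 3 lower (2.81% of all genes), namely RPP2A, RPL15A and RPL31B (−0.62).

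In nap1 no member reached 1.5-fold, against 1.99% of all genes higher and 0.423% lower without TSA and 0.761% and 0.456% with it. Without TSA RPP1B (0.15), a stalk gene, was highest and RPL30 (−0.45) lowest. With TSA RPL29 (0.57), RPL39 (0.55) and RPS17B (0.52) led, and RPL7B (−0.40) and RPS14B (−0.30) were lowest. On the wild type array 1 member, RPP2A, was higher (0.98% of all genes) and 0 lower (0.541% of all genes). In vps75 7 members were past 1.5-fold higher without TSA (3.87% of all genes) and 7 with it (4.87% of all genes), and 0 (0.744% of all genes) and 2 (1.34% of all genes) lower. Those past 1.5-fold higher off chromosome IX were RPL38 (0.68) and RPL41A (0.59) without TSA, and RPL39 (0.70) and RPL41A (0.62) with it. RPL8A was lowest without TSA at −0.50 and stood at −0.59 with it, where RPS14B was lower still at −0.70.

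A and B paralogs differed little in most pairs. The median absolute difference between the copies of a pair ran from 0.07 in nap1 without TSA to 0.31 in chz1 without TSA, over 59 pairs. The A gene had the higher log2 ratio in 26 (chz1 without TSA) to 38 (both vps75 arrays) of the 59. From 0 to 10 pairs lay at least 1.5-fold apart on an array, with 10 in chz1 without TSA. The pairs with the largest mean absolute difference were RPP2 (0.55), RPS14 (0.50), RPS28 (0.49), RPL34 (0.40), RPS27 (0.39), RPS22 (0.39), RPL20 (0.37) and RPS24 (0.35).

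For RPP2 and RPL34 single strains stood apart, as described for the wild type, asf1 and vps75 arrays. The log2 ratio of RPS14A was above that of RPS14B on all 11 arrays, with A minus B from 0.07 to 1.95. For RPS27 it was below 0 on all 11, from −1.27 (chz1 without TSA) to −0.08. On the turned nap1 array A minus B was 0.07 for RPS14 and −0.09 for RPS27. The part of dye preference in these shared signs was not tested. RPS22A minus RPS22B was 0.82 and 0.71 in rtt106 and −0.08 and −0.00 in asf1, without and with TSA. RPS24A minus RPS24B was negative on the vps75 arrays alone, at −0.33 and −0.15. Closest were RPL1 (0.03), RPL17 (0.07), RPS18 (0.08) and RPS4 (0.08). Where copies are near-identical, a probe may read both, and a small difference does not show equal levels of the copies.

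**Figure D5:**
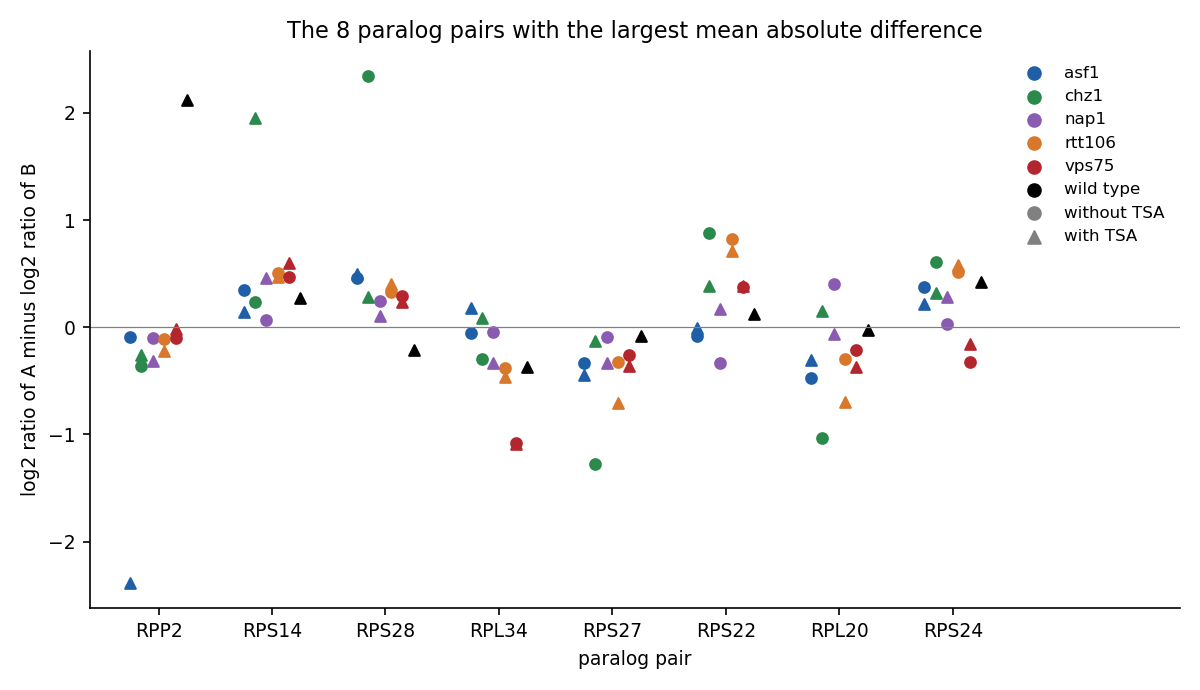
Log2 ratio of the A gene minus that of the B gene (y axis) for the 8 pairs with the largest mean absolute difference (x axis), 1 point per array, circles without and triangles with TSA, coloured by strain. RPS14 is above 0 and RPS27 below 0 on all 11 arrays, and RPP2 runs from −2.38 to 2.12.

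Genes that act with the ribosomal proteins were read in the same TSA comparison, and 0 were called in each list. The list values rested much on the chz1 strain, whose array without TSA had the widest ratios. Of 26 regulators of ribosomal protein genes, 16 had a positive mean difference, with a median of 0.03 against −0.00 for all genes; without chz1 9 did and the median was −0.02. GCR1, an activator, stood at 0.36 (0.27 without chz1) and EPL1, a partner of Esa1, at −0.32 (−0.33 without chz1). The repressor TOD6 stood at −0.58, with −2.09 in chz1 and −0.21 without it.

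Of 12 genes listed as chaperones and import factors of ribosomal proteins, 1 was above 0 and the median was −0.24. Without chz1 3 were above 0 and the median was −0.05. The list also takes in HGH1 and EFM1, so the values describe the list rather than the class. NAP1, itself deleted in 1 strain, is on this list, and without it the medians were −0.25 and −0.04. KAP123 stood at 0.06 and PSE1 at −0.05, both import receptors. The dedicated chaperone genes SYO1 and ACL4 stood at −0.40 and −0.34, and at −0.04 and −0.12 without chz1. Of 20 elongation and ribosome-bound factors 9 were above 0, with a median of −0.03; without chz1 3 were, with a median of −0.05. TEF2 (0.13) and SSB2 (0.12) were highest, and turned to −0.11 and −0.15 without chz1. ANB1 (−0.42) and HYP2 (−0.27) were lowest, at −0.51 and −0.11 without chz1. The smallest adjusted p of the 3 lists was 0.816. The 67 mitochondrial ribosomal protein genes had medians between −0.07 (rtt106 without TSA) and 0.39 (chz1 with TSA).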

How the data were processed

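Reference RNA carried Cy5 and experimental RNA Cy3, per the labels. The authors deposited a table per array, with intensities of each channel in a pair of repeat measurements, a merged log10 ratio and a signed fold, treated as a score, rounded to 1 decimal. In the matrix of log2 values that the authors also deposited, the vps75 columns are exchanged, and the tables per array were followed. How background was corrected is not given in the sources used here.

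After an offset of 50, the log2 ratios of each repeat were corrected by loess (span 0.3), fitted without the members, and averaged (limma 3.58.1, R 4.3.3). A gene was tested if its signal exceeded 2 times the median of 4 genes deleted from the parent, in either channel, on 50% of 10 deletion arrays, which left 5916. Linear models (lmFit, eBayes) held a term for strain, and Benjamini-Hochberg adjusted p-values were called at 0.05. The arrays of a strain are pairs by the design; their deviations correlated at 0.594 (asf1), −0.153 (chz1), 0.386 (nap1), 0.657 (rtt106) and 0.676 (vps75). Symbols of 5756 genes were matched to RefSeq.

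Named members were those called, the 6 highest and lowest with TSA, the 3 highest and lowest per array, and the 8 most and 4 least different pairs; others were chosen after their values were seen, and some named by this rule are not reported here. The members and lists were chosen with earlier results of these data known. The number of arrays limits the precision. Scripts were tested on simulated data.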

Additional observations from a re-analysis of the deposited data

Results flagged for a closer look

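In 25 sets of 5 strains, the highest or lowest strain was compared with its nearest neighbour by Dixon's ratio, and 7 sets had a strain that stood apart. Chance flags about 1 in 20 sets, but this is no yardstick here: most sets were chosen for extreme values, and RPP2A enters as a gene and in its pair. The member median of the TSA difference stood apart in nap1, at 0.32, against −0.17 to −0.04 in the other strains. Large minus small subunit with TSA stood apart in asf1, at −0.036, against −0.017 to −0.014. In the single repeat measurements it was −0.036 and −0.027 in asf1, and from −0.027 to 0.017 in the other strains. RPP2A differed with TSA by −2.50 in asf1, against −0.15 to 0.31, and RPP2A minus RPP2B by −2.29. In chz1 RPL7A differed with TSA by 1.59, against −0.33 to −0.01. In chz1 also stood apart RPS28A minus RPS28B, by −2.06, and RPS27A minus RPS27B, by 1.14. The chz1 values join its array without TSA, which had the widest ratios over all genes (SD 0.54).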

How the results depend on the processing

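The absence of called members with TSA held under every setting that keeps wild type as the reference, the fit with no replicate block included. On the TSA arrays the deleted genes stood between −4.53 (NAP1) and −3.33 (RTT106), so the reference there contained them. With the untreated deletion read as the reference all the same, as most TSA channel entries have it, 402 genes and 11 members were called. These are the counts of the deletions with TSA against the reference. RPL15A (0.041), RPL27A (0.042), RPS28B (−0.12), RPS8A (−0.017), RPL7A (−0.087) and RPS11A (−0.19) then changed sign. With 1 strain left out, the means ran from −0.34 to 0.010 for RPS25B, −0.046 to 0.57 for RPS28B, −0.060 to 0.41 for RPS8A, −0.19 to 0.29 for RPL7A and −0.11 to 0.30 for RPS11A, each with the turned sign without chz1. The member median of the TSA difference ran from −0.10 to 0.02 with 1 strain left out, and that without TSA from 0.00 to 0.11.

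Member medians moved with the handling of the brightness trend and, in nap1, with the column direction. Loess on all genes gave 0.052 in nap1 with TSA. Median centring gave −0.11 in asf1, 0.23 in chz1, 0.34 in nap1, 0.19 in rtt106 and 0.23 in vps75 with TSA, and 0.44 in rtt106, 0.32 in vps75 and 0.083 in nap1 without. The deposited log ratio gave 0.040, 0.29, 0.40, 0.28 and 0.27 with TSA, and 0.51, 0.36 and 0.12 without, in the same order. The series matrix gave 0.26 in chz1, 0.38 in nap1, 0.26 in rtt106 and 0.26 in vps75 with TSA, and 0 in nap1 and 0.49 in rtt106 without. The nap1 array without TSA as deposited gave 0.19, the largest move. The median over the deletions without TSA was 0.23 after centring and 0.28 by the deposited ratio.

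In vps75, RPL2B, RPL16A and RPS24B passed under all 13 alternatives, RPL34B under 12 and RPL40A under 11; 3 to 6 members were called with 1 strain left out, 3 of them without asf1, where RPL34B had an adjusted p of 0.0624 and RPL40A 0.0681 by limma. With chromosome IX left out, chosen after seeing the data, 0 were called. In asf1 1 member was called after centring and by the deposited ratio, 2 by the series matrix, and 0 to 4 with 1 strain left out. With 1 strain left out, nap1 had 0 to 2 and rtt106 0 to 6, the highest counts all without chz1. The share of all genes called in these settings is not given, so the counts are not set against a background. Against the reference with TSA, the settings were added after seeing the data. There 5 members were lower by loess on all genes (3.48% of all genes), and 38 higher and 4 lower after centring (5.32% and 6.02%). By the deposited ratio 49 were higher (8.81%), and after scaling between arrays 6 were lower (5.36%). With 1 strain left out 0 to 6 were higher (0.237% to 2.08% of all genes) and 0 to 2 lower (0.118% to 1.57%). The causes were not tested. The planned normexp correction was not run, since the files hold no background column.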
